A study of Mus musculus with 8 samples.

Results

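The neurofilament and Kif5 axonal transport genes are 9 genes chosen by name: the neurofilament subunits *Nefh*, *Nefm*, *Nefl* and *Ina*, the kinesin heavy chains *Kif5a*, *Kif5b* and *Kif5c*, and the kinesin light chains *Klc1* and *Klc2*. They were put together with earlier results of these arrays known, in which *Nefh* and *Kif5a* were already lower in the mutant mice, so the differences given here for the members are descriptions and no test is drawn from them. Of the 9 genes, 8 had at least 1 probe on the array and 6 had a probe detected above background, among 8051 named genes detected in all. The arrays measured brain RNA of 4 Hfe-/-xTfr2mut mice, homozygous for a disruption of *Hfe* and a mutation of *Tfr2*, and of 4 wild-type mice. All were male AKR mice of 13 weeks. Only the mutant mice were given 2% carbonyl iron in their food, during the last 3 weeks, against about 0.02% iron in the standard food of the wild-type mice, so that genotype and diet cannot be told apart. Each array held the RNA of 1 brain or brain hemisphere as a whole, in which fewer cells of a type and less RNA per cell cannot be told apart.

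Neurofilaments are the intermediate filaments of neurons. They are built from the light, medium and heavy subunits together with alpha-internexin, they fill the axons of large myelinated neurons, and their number sets axon diameter. The subunits are made in the cell body and carried down the axon slowly along microtubules, and kinesin-1, a motor made of a pair of Kif5 heavy chains and a pair of light chains, is a forward carrier for them as well as for vesicles and mitochondria. Mutations of *NEFL* cause Charcot-Marie-Tooth neuropathy in people, and mutations of *KIF5A* cause a spastic paraplegia.

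Signals below are cubic-spline normalized intensities in arbitrary units, and a probe counts as detected in an array when its detection p, its comparison with the negative control beads of that array, is under 0.01. Between 11188 and 11751 of 25697 probes were detected in the mutant arrays and between 11568 and 12192 in the wild-type arrays, with the weakest detected signals at 49.6 to 69.4 units. The 8 arrays correlated with each other at 0.966 to 0.993. Markers of neurons (8 of 9), oligodendrocytes (10 of 12) and astrocytes (8 of 8) were detected in these whole-brain samples, while the probe of *Snap25*, a neuronal synaptic gene, was not. The 1 detected *Hfe* probe read 314 to 356 units in the mutant and 123 to 140 in the wild-type arrays, so it differed between the labelled groups without overlap. A further *Hfe* probe, detected in 0 arrays, read 18.8 to 34.5 against -3.32 to 13.7 units. A higher signal in the mutant mice does not show the loss of *Hfe*, and why it was higher was not tested. The probes for *Tfr2* stayed at background throughout, so they do not check its mutation.

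The promoter windows of *Kif5c* and *Klc1* are shown because both hold the same 8-base palindrome. Windows of 250 bases before to 50 bases after the start were given by RefSeq (GRCm38.p6) for 3 of the 9 members, *Ina*, *Kif5c* and *Klc1*. The *Kif5c* window is chr2:49619036-49619335 on the plus strand and the *Klc1* window is chr12:111758618-111758917 on the plus strand. The *Klc1* window lies inside the gene as RefSeq spans it, whose first base is 111758435, so the start it is built on is an internal one. Capitals mark TGACGTCA, the cAMP response element.
Kif5c: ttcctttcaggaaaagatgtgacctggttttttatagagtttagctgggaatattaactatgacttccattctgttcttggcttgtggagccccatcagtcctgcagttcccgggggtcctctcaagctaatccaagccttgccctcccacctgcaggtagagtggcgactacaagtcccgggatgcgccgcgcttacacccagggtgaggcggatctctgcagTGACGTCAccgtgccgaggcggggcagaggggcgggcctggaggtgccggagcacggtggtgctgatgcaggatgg
Klc1: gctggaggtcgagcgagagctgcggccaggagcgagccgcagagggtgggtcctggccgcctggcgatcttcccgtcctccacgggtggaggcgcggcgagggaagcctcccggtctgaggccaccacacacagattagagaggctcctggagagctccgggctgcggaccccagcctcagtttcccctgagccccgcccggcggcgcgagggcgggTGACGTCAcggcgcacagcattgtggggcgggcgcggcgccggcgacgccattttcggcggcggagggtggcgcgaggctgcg
Counted from the start that each window is built on, the palindrome lay at bases -26 to -19 in *Kif5c* and at -33 to -26 in *Klc1*, and it was not among the letters of the *Ina* window. It was chosen after the windows had been read. Among 32851 windows of the same length, 588 (1.79%) held it. The GC box GGGCGG, present in 35.7% of windows on either strand, matched 2 times in *Ina*, 1 time in *Kif5c* and 3 times in *Klc1*. A match is a description of the letters and says nothing on which factor binds there. The *Ina* and *Klc1* windows were rich in G and C, at 71.7% and 73.7%, against 58% in *Kif5c* and a median of 52.7% over all windows.

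*Nefh*, the heavy neurofilament subunit, whose long phosphorylated tail projects from the filament and sets its spacing, gave the largest difference among the 6 detected members. Its probe (ILMN_1237729, chromosome 11) read 1800, 1249, 1891 and 1669 units in mutant mice 1 to 4 and 2508, 2169, 1854 and 2310 units in wild-type mice 1 to 4. Wild-type mice 1, 2 and 4 lay above every mutant mouse, and wild-type mouse 3 lay just below mutant mouse 3, so the groups overlapped by that pair. The means were 1652 ± 284 and 2210 ± 275 units (SD, n = 4 each). The log2 difference was -0.43 (SE 0.145, 95% interval -0.75 to -0.11), or 1.35-fold lower.

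*Nefm*, the medium subunit, with a shorter side arm of the same kind, read 3560, 3878, 4414 and 4084 units in the mutant mice and 5267, 4501, 4542 and 3877 units in the wild-type mice (ILMN_2938820, chromosome 14). Wild-type mice 1, 2 and 3 lay above every mutant mouse, while wild-type mouse 4 lay below 3 of them. The log2 difference was -0.19 (SE 0.115, 95% interval -0.44 to 0.07), with means of 3984 ± 359 and 4547 ± 569 units.

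*Ina*, which encodes alpha-internexin, the subunit that appears early in neuronal development and is common in small central axons, did not share the lower values. It read 2482, 2654, 3362 and 3021 units in the mutant mice and 3619, 2617, 2127 and 2915 units in the wild-type mice (ILMN_2836494, chromosome 19). The highest and the lowest of the 8 arrays were both wild-type. The log2 difference was 0.05 (SE 0.160, 95% interval -0.31 to 0.40), an interval that includes the -0.19 of *Nefm*.

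*Nefl*, the light subunit that every neurofilament needs as its core, could not be measured here. Its only probe (ILMN_2679784, chromosome 14) lay between -17.7 and 0.597 units, with detection p between 0.361 and 0.962, in all 8 arrays. The probe of *Nefm*, its close neighbour on chromosome 14, was detected in all 8 of the same arrays. No level of *Nefl* was obtained in either group.

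*Kif5a*, the heavy chain made mainly in neurons and the one tied to neurofilament transport, had 3 detected probes on chromosome 10. The brightest (ILMN_3065852) read 8557, 7676, 9406 and 8523 units in the mutant mice and 10327, 9926, 9995 and 9559 units in the wild-type mice. Every wild-type mouse lay above every mutant mouse. The means were 8540 ± 706 and 9952 ± 315 units, a log2 difference of -0.22 (SE 0.0923, 95% interval -0.43 to -0.02), or 1.17-fold lower.

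The other *Kif5a* probes were dimmer and overlapped between the groups. ILMN_3143833, designed on the same transcript record, read 423 to 484 units in the mutant mice and 399 to 495 units in the wild-type mice, a log2 difference of -0.06 (SE 0.102). ILMN_2645752 read 180 to 216 units against 206 to 239 units, a difference of -0.12 (SE 0.0979). All 3 differences were negative, and only that of the brightest probe had an interval that stayed below 0. The deviations of the 3 probes from their group means correlated at 0.17 to 0.26 over the 8 arrays, so the probes did not follow each other closely from mouse to mouse. In the average-normalized signals, where the median of all probes was -0.09, the dimmer probes were further from 0, at -0.16 and -0.25, while the brightest was at -0.20.

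*Kif5c*, the other heavy chain enriched in neurons, read 8927, 10876, 8634 and 9924 units in the mutant mice and 9170, 10108, 10093 and 10669 units in the wild-type mice (ILMN_1216662, chromosome 2). The highest of the 8 arrays was mutant mouse 2 and the groups overlapped widely. The log2 difference was -0.07 (SE 0.103, 95% interval -0.29 to 0.16). *Kif5b*, the heavy chain of all cell types, had a pair of probes on chromosome 18 that were detected in 0 of 8 arrays, with detection p of 0.118 to 0.549 and of 0.467 to 0.967, so that no level was obtained for it.

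*Klc1*, the light chain that links neuronal kinesin-1 to much of its cargo, had 5 detected probes on chromosome 12, and their differences were all negative but of unequal size. The brightest (ILMN_2671411) read 10534, 8197, 12517 and 10032 units in the mutant mice and 16353, 12760, 9993 and 11282 units in the wild-type mice. The groups overlapped, with wild-type mouse 3 below 3 of the mutant mice. The log2 difference was -0.28 (SE 0.167, 95% interval -0.65 to 0.09).

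A second *Klc1* probe (ILMN_2605756), designed on the same transcript record as the brightest, read 3503 to 5364 units in the mutant and 3917 to 6077 units in the wild-type mice and gave a difference of -0.04 (SE 0.162). The pair moved together from mouse to mouse, with a correlation of 0.96 between their deviations from the group means. The log2 ratio of the brightest over this probe within each array was 1.25, 1.23, 1.22 and 1.09 in the mutant mice and 1.43, 1.54, 1.35 and 1.41 in the wild-type mice. Every mutant ratio lay below every wild-type ratio, by -0.24 on average, in a comparison that was picked after the values had been seen and has no test. In the non-normalized signals the same ratios ran from 1.11 to 1.32 in the mutant and from 1.34 to 1.52 in the wild-type mice, again without overlap. The other probe pairs set against each other in this way overlapped between the groups. For *Klc1* ILMN_3042059 over ILMN_3116826 the ratios were -1.40 to -1.04 in the mutant and -1.14 to -0.99 in the wild-type mice. The brightest *Kif5a* probe gave 4.14 to 4.37 against 4.30 to 4.65 over ILMN_3143833. Over ILMN_2645752 it gave 5.31 to 5.61 against 5.37 to 5.65.

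The remaining *Klc1* probes were designed on other transcript variants. ILMN_3042059 read 632, 507, 621 and 637 units in the mutant mice and 698, 681, 652 and 760 units in the wild-type mice. All mutant values lay below all wild-type values, with a log2 difference of -0.22 (SE 0.104, 95% interval -0.45 to 0.01). ILMN_3116826, on the same variant, read 1276 to 1504 against 1295 to 1540 units and gave -0.09 (SE 0.0978). ILMN_3163020 read 974 to 1071 against 998 to 1111 units and gave -0.05 (SE 0.0852), so both had overlapping groups. In the average-normalized signals, which are scaled by 1 factor for each array, these 3 probes gave -0.31, -0.14 and -0.12. *Klc2*, the second light chain named, had no probe on this array under that symbol.

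**Figure D1:**
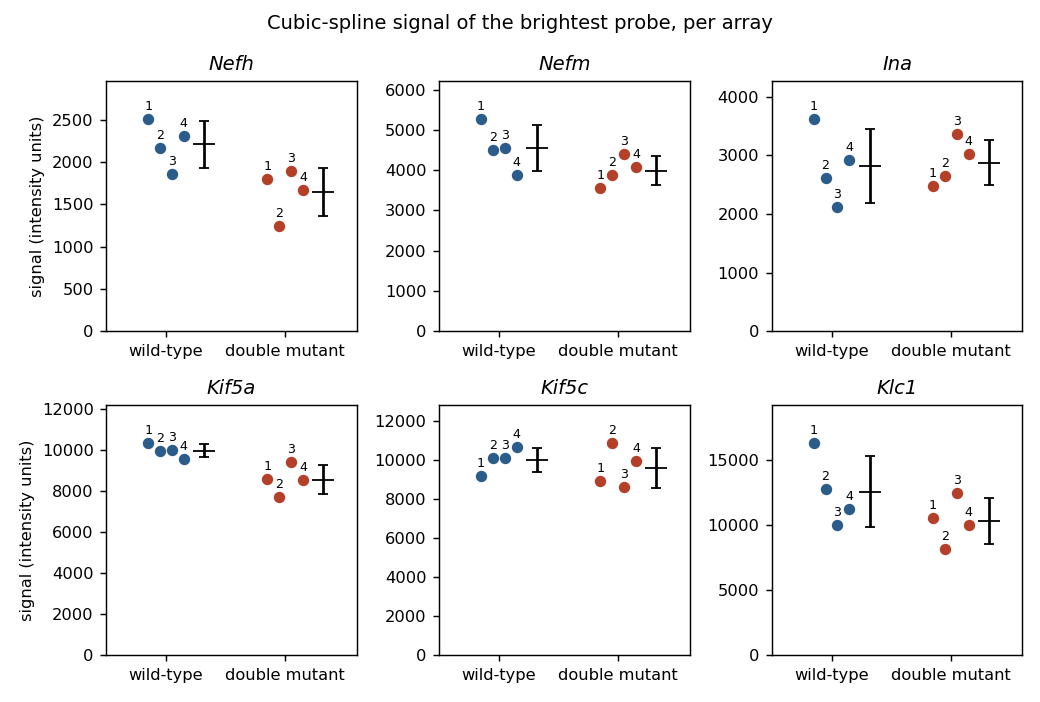
Cubic-spline signal in intensity units of the brightest probe of each detected member, 1 point for each mouse with its replicate number, wild-type in blue and double mutant in red, with the mean and SD (n = 4) as black marks. The 4 mutant points of *Kif5a* lie below the 4 wild-type points, those of *Nefh* overlap by 1 pair (1891 against 1854 units), and those of *Nefm*, *Ina*, *Kif5c* and *Klc1* overlap.

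Counted by gene, 5 of the 6 detected members and, counted by probe, 11 of 12 had a negative difference, where 49.9% of all detected genes and 50.4% of all detected probes did. The median difference was -0.21 over the 6 genes and -0.10 over the 12 probes. At an unadjusted limma p under 0.05, 2 members (*Nefh* and *Kif5a*) were lower and 0 were higher, beside 5.7% of all genes lower and 6.79% higher. By probe, the same 2 of 12 were lower beside 6.02% of all probes. After Benjamini-Hochberg adjustment over 11204 probes, limma called 0 of the 6 genes, whose adjusted p ran from 0.297 to 0.921, beside 16 of 8051 genes (0.199%) in either direction. The members' groups were without overlap, mutant below wild-type, for 1 gene, *Kif5a*, beside 3.48% of all genes, and for 2 probes beside 3.53% of all probes. *Nefh* was under the unadjusted p whichever array was left out, whereas *Kif5a* (-0.27 to -0.17 with an array left out) was not without mutant mouse 1, 2 or 4 or without wild-type mouse 1, 2 or 3. Since the members were chosen on this same contrast, these counts are given with their background and nothing is read from them. None of the 9 genes lies on the chromosomes of *Hfe* (13) or *Tfr2* (5).

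**Figure D2:**
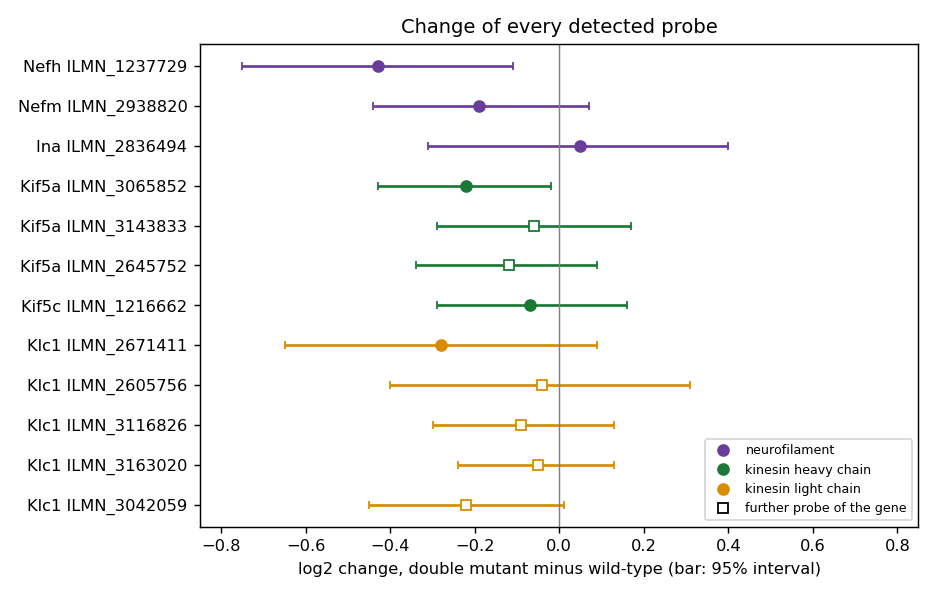
Difference in log2 signal, double mutant minus wild-type, of the 12 detected member probes on the horizontal axis, with limma's 95% interval as a bar. Filled points are the brightest probe of each gene and open squares further probes, and only the intervals of *Nefh* (-0.75 to -0.11) and of the brightest *Kif5a* probe (-0.43 to -0.02) stay below 0.

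Set against each other, the neurofilament and kinesin genes had the same mean difference, in a comparison without a test. The mean log2 signal of *Nefh*, *Nefm* and *Ina*, taken relative to the wild-type mean, was -0.26, -0.37, 0.01 and -0.14 in the mutant mice and 0.27, -0.04, -0.21 and -0.02 in the wild-type mice. That of *Kif5a*, *Kif5c* and *Klc1* was -0.20, -0.28, -0.09 and -0.18 in the mutant mice and 0.11, 0.02, -0.10 and -0.03 in the wild-type mice. The groups overlapped on both scores, for the kinesins only through mutant mouse 3 and wild-type mouse 3. The group difference was -0.19 for the neurofilament genes (SD 0.16 among mutant and 0.20 among wild-type mice) and -0.19 for the kinesin genes (SD 0.08 and 0.09). Neurofilament minus kinesin was -0.06, -0.08, 0.10 and 0.04 in the mutant and 0.16, -0.05, -0.11 and 0.01 in the wild-type mice, a group difference of 0.00 that is smaller than the spread within either group (SD 0.09 and 0.11). It was -0.06 in the average-normalized signals and -0.08 with the mean of all detected probes of each gene.

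**Figure D3:**
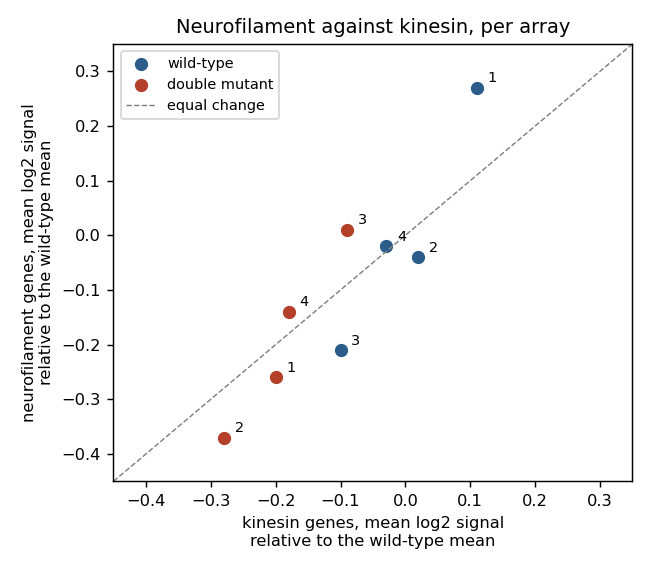
Mean log2 signal of the 3 detected neurofilament genes (vertical) against that of the 3 detected kinesin genes (horizontal), each relative to its wild-type mean, 1 numbered point for each mouse. The dashed line marks equal values, mutant mouse 2 is lowest on both axes (-0.37 and -0.28), and wild-type mouse 1 is highest on both (0.27 and 0.11).

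Members differed within each class. In the neurofilament class *Nefh* was the lowest and *Ina* was not lower, a spread of -0.43 to 0.05. In the kinesin class the differences ran from -0.28 for *Klc1* to -0.07 for *Kif5c*. The intervals of all 6 genes overlapped one another.

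Members also differed in how they varied among mice of 1 group, as deviations from the group means over 8 arrays, given as descriptions of arrays that share 1 chip. *Nefh* went with *Klc1* (r = 0.86), *Kif5a* (0.75) and *Ina* (0.65) and hardly with *Nefm* (0.23), its partner subunit. *Kif5c* went the other way, at -0.91 with *Kif5a*, -0.83 with *Klc1* and -0.79 with *Nefh*. The mean signal of the arrays before normalization moved in a similar order. It was 677, 570, 741 and 605 units in the mutant mice and 905, 739, 571 and 625 in the wild-type mice, so mutant mouse 2 and wild-type mouse 3 were the dimmest of their groups and also the lowest in *Nefh*. With this mean signal as a covariate, chosen after the data had been seen, the difference of *Nefh* was -0.34 (SE 0.116), that of *Kif5a* -0.19 (SE 0.0827) and that of *Klc1* -0.14 (SE 0.0851). The second *Klc1* probe, ILMN_2605756, turned positive with this covariate, at 0.08 (SE 0.103), and with array weights, at 0.04 (SE 0.115).

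The genes most like *Nefh* in these deviations, among 8050 others by their brightest probe, were *Cebpb*, *Mfsd13a* and *En1* (r = 0.99 each) and *Kifap3* and *Ccnt1* (0.98 each), over 8 arrays. Of these, *En1* was near background and read 53 units in mutant mouse 2, under the weakest detected signal of that array (69.4). It was kept only through the wild-type group, so its likeness is not read as a result. The group differences of the 5 genes were smaller than that of *Nefh*, between -0.23 for *Ccnt1* and 0.03 for *Cebpb*. The closest member, *Klc1*, ranked 440. Those most like *Kif5a* were *Plppr2*, *Timm8a1*, *Arpc4* and *Lrrc3b* (0.98 each) and *Ndufa1* (0.97), with differences between -0.14 for *Lrrc3b* and 0.14 for *Ndufa1*. None of these genes passed an unadjusted limma p under 0.05 between the groups.

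Other genes of axonal transport and the axonal cytoskeleton were counted from 7 lists. Of 96 detected genes, 9 (9.38%) were lower and 0 higher at an unadjusted limma p under 0.05, beside 5.7% of all genes lower and 6.79% higher (12.5% in either direction), and 0 passed after adjustment. Counted in either direction, the 9 became 8 (8 lower) with detection required in all 8 arrays. They became 5 (4 lower) without wild-type mouse 2 or without wild-type mouse 4, and 14 (13 lower) without wild-type mouse 3. Not all were lower without mutant mouse 3 (6 of 9 lower), without mutant mouse 2 (5 of 7) or with a replicate block (6 of 7). The shares over all genes moved as well. They were 8.39% lower and 8.63% higher without wild-type mouse 3, and 3.91% and 5.13% without wild-type mouse 4. The median difference over the 96 was -0.03, against 0 over all 8051 genes by their brightest probe.

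Among the 7 lists, the axonal membrane skeleton and its linkers had the lowest median, a ranking made after the values had been seen. There 9 of 10 detected genes were negative, beside 49.9% of all genes, with a median of -0.26. At the unadjusted p 4 were lower and 0 higher, beside 5.7% and 6.79% of all genes. *Ank3*, the ankyrin-G that organizes the axon initial segment, read 936, 744, 729 and 977 units in the mutant mice and 1085, 1191, 968 and 1105 in the wild-type mice. Only mutant mouse 4 and wild-type mouse 3 overlapped, and the difference was -0.37 (SE 0.123, adjusted p = 0.297 by limma). *Ank2*, ankyrin-B of the axon shaft, differed by -0.31 (SE 0.115), *Dst*, a linker of intermediate filaments and microtubules, by -0.47 (SE 0.183), and *Add1*, which caps actin in the membrane skeleton, by -0.27 (SE 0.108). *Add1* lies on chromosome 5, that of *Tfr2*. Without mutant mouse 2 or without wild-type mouse 2, 2 of the 10 genes were lower in place of 4. In the average-normalized signals 5 were lower, beside 12.2% of all genes. With array weights 6 were lower, beside 9.29% of all genes.

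The motors and tracks were closer to 0. Of 10 other kinesins 1 was lower, *Kif1b*, a carrier of synaptic vesicle precursors and mitochondria, at -0.29 (SE 0.117), while *Kif3a*, of kinesin-2, gave 0.25 and did not pass. Of 21 dynein and dynactin genes, the machinery of backward transport, 1 was lower, *Dync1i2* at -0.21 (SE 0.0863), with a list median of -0.01. Of 22 microtubule genes 1 was lower, *Map7*, which recruits kinesin-1 to microtubules, at -0.25 (SE 0.0997), with a median of -0.03. None of 15 detected kinesin-1 adaptors (median -0.03) and none of 11 genes for neurofilament kinases, turnover and RNA binding (median -0.02) passed in either direction.

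Among 7 other detected intermediate filament genes 2 were under the unadjusted p, and 1 of 6 when detection in all 8 arrays was asked for. *Nes*, the filament of neural progenitors and of vessels, was detected in 1 of 4 mutant and 4 of 4 wild-type arrays and was kept only through the wild-type group, so its difference of -0.98, at signals of 27.2 to 93.3 units, is not read as a result. *Vim*, of glia and endothelium, gave -0.27 (SE 0.119). *Gfap*, the filament of astrocytes, gave 0.26 (SE 0.139) and did not pass. The median of the list was -0.02.

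**Figure D4:**
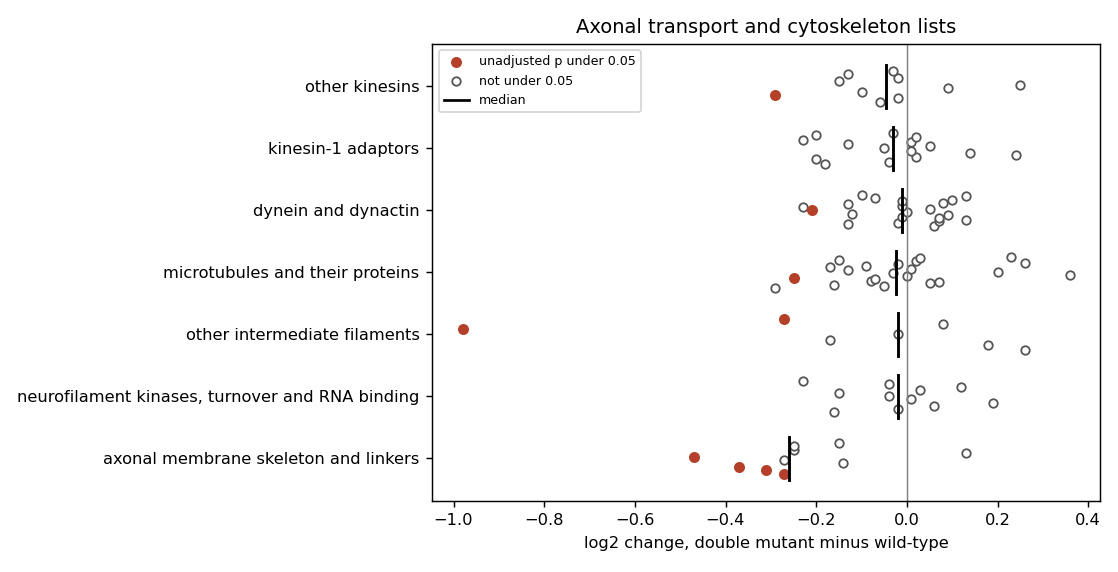
Difference in log2 signal, double mutant minus wild-type, of each detected gene in 7 lists of axonal transport and cytoskeleton genes, with list medians as black bars and filled points at an unadjusted limma p under 0.05. The axonal membrane skeleton list has the lowest median (-0.26) and 4 filled points, and the single point at -0.98 is *Nes*, kept only through the wild-type arrays.

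Cell type markers also differed, and their part in the members' differences was not tested. In each list 0 markers passed after adjustment. The unadjusted counts stand beside 5.7% of all genes lower and 6.79% higher. Of 10 genes listed as markers of large projection neurons, the cells richest in neurofilament, 6 were negative and the others positive. The 2 lower ones were *Glra1* at -0.33, at signals of only 87.4 to 130 units, and *Kcna2* at -0.39. The most positive was *Chat* at 0.27, which did not pass. How specific this list is to such neurons was not tested. Its summed signal was 33732 to 37537 units in the mutant and 32489 to 37408 in the wild-type mice, which overlap. Of 8 neuron markers 1 was lower, *Syt1*, and 4 were negative, with sums of 65773 to 69558 against 69584 to 72969 units. All 10 markers of oligodendrocytes, the cells that wrap neurofilament-rich axons, were negative and 4 were lower, with sums of 75903 to 79534 against 80007 to 89300 units. Of 8 astrocyte markers 1 was lower and 4 were negative, with overlapping sums of 52589 to 57025 against 52780 to 61390 units. All 5 endothelial markers were negative and 4 were under the unadjusted p (summed signal 2664 to 3660 against 3693 to 4075 units). Of these, *Slco1a4* was detected in 1 of 4 mutant and 4 of 4 wild-type arrays and was kept only through the wild-type group. With detection in all 8 arrays 3 of 4 were lower. *Flt1* (-0.41), also among them, lies on chromosome 5, that of *Tfr2*. The 7 microglial markers were all positive with 2 higher (3214 to 3373 against 2657 to 3122 units). In the average-normalized signals 0 of the 7 were higher and 1 was negative, with a median of 0.09 in place of 0.20. Without wild-type mouse 1, 0 were higher.

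Among markers of brain regions, *Pcp2*, of cerebellar Purkinje cells, was higher in the mutant mice, at 5919, 5648, 4814 and 5007 units against 4118, 3768, 4523 and 4449 units, without overlap (log2 difference 0.34, limma adjusted p = 0.278). The other region markers did not pass the unadjusted p, and the summed signals of all 3 lists overlapped between the groups. Sums ran from 19290 to 24416 against 18414 to 21616 units for 7 cerebellar markers, from 16139 to 25083 against 17448 to 25929 units for 6 markers of cortex and hippocampus, and from 776 to 1096 against 777 to 1018 units for 2 hindbrain markers. The part of tissue sampling in the neurofilament values was not tested.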

How the data were processed

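RNA of 8 brains was hybridized to 1 Illumina MouseRef-8 v2 BeadChip, groups alternating along its positions. The authors subtracted background in GenomeStudio and deposited signal intensity without normalization, after average and after cubic-spline normalization, with a detection p-value per probe. The series matrix repeats the cubic-spline signals and was not used. Every column had a sample (0 without). Arrays carry no counts, and 4 arrays per group limit the precision.

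Probes with detection p under 0.01 in all arrays of at least 1 group were kept (11204), signals under 10 set to 10, log2 taken and limma 3.58.1 (R 4.3.3) fitted on all 8 arrays with group alone, Benjamini-Hochberg adjusted over all kept probes. The procedure was tested on simulated data. Genes were named through the platform annotation and RefSeq (23978 probes with 1 symbol, 1719 with none) and stand by their brightest detected probe. Levels were not compared between genes.

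Members and lists were chosen with earlier results of these data known. Named genes are all members, up to 4 of lowest p in each list, and the 5 most like *Nefh* and *Kif5a*. The labels do not state how litters or RNA batches fell, so p-values measure the spread between these samples. Alternatives were 3 normalizations, 2 floors, 3 detection filters, a replicate block, chip position, array weights, a test without shared spread, the mean of all probes, array brightness and leaving out each array.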

Additional observations from a re-analysis of the deposited data

Results flagged for a closer look

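In 148 checks of a gene in 1 group of 4 arrays, 9 found an array that stood apart from the other 3, its gap to the nearest taking more of the whole range than Dixon's 95% limit. Chance marks about 1 in 20 such groups. Among the members, the *Kif5a* probe ILMN_3143833 read 399 units in wild-type mouse 3, with the next at 486, and the *Klc1* probe ILMN_3042059 read 507 units in mutant mouse 2, with the next at 621.

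In mutant mouse 2, *En2* read 1788 units (next 1221) and *Htt* 123 (next 91.2). In wild-type mouse 3, *Ank2* read 2985 units (next 3466) and *Kif1b* 7075 (next 8842). In mutant mouse 3, *Slco1a4* read 109 units (next 47.8) and *Kif21a* 1078 (next 1413), and in mutant mouse 1 *Lmnb1* read 407 units (next 472).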

How the results depend on the processing

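The 22 alternatives reuse the arrays on which *Nefh* and *Kif5a* were already known to be lower. Their counts therefore describe the processing and add no support. Over 22 alternatives *Nefh* stayed negative and at an unadjusted p under 0.05 in 22 (-0.51 to -0.30). *Kif5a* stayed negative in 22 and under that p in 13 (-0.27 to -0.14). *Nefm*, *Klc1* and *Kif5c* stayed negative in 22, under that p in 1, 2 and 0. *Ina* turned to -0.03 without mutant mouse 3 and to -0.08 without wild-type mouse 3 (-0.08 to 0.18 over arrays left out). The count of members under the unadjusted p, 2, became 1 with the replicate block, with chip position and with the mean of all probes, and 1 to 3 with an array left out, *Nefh* alone without mutant mouse 1, 2 or 4 or wild-type mouse 1 or 2. No member passed the adjusted p in any of the 22. Neurofilament minus kinesin ran from -0.08 to 0.05. Counted in either direction, the 9 list genes became 5 with chip position and 15 with array weights, all of them lower. Over all genes, 4.87% were lower and 5.43% higher with chip position, and 9.29% and 10.1% with array weights. With an array left out the list genes became 5 to 14, not always all lower (5 without wild-type mouse 2 or 4, 14 without wild-type mouse 3). Calls over all genes moved too, to 8.39% lower and 8.63% higher without wild-type mouse 3. Why these counts moved was not tested. In the average-normalized table the median of all probes was -0.09, with 12.2% of genes lower and 3.38% higher at the unadjusted p against 5.7% and 6.79%, and *Nefh* was at -0.49.

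Mice of the same replicate number lay at neighbouring chip positions but did not deviate together (r = 0.10, -0.14, -0.35 and 0.10). The labels state no pairing, and such correlations cannot exclude one. With the replicate block 1 member stayed under the unadjusted p, *Nefh* at -0.43, and *Kif5a*, at -0.22, did not. Signals near background limit *Nefl* and *Kif5b*, which have no level here.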
